A study of Bos taurus with 10 samples.

Results

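The genes described here are pre-mRNA splicing factors of cattle, read on a human expression array in embryos and in adult organs. Members were taken by name: probe sets with values whose single human symbol begins with SNRP, SF3A, SF3B, HNRNP, U2AF or PRPF, or with SRSF or LSM and a digit. This gave 89 of 10186 probe sets, for 51 of 6732 genes. By name they fall into 9 SR protein genes (SRSF), 24 genes grouped as snRNP proteins (SNRP, SF3A, SF3B, LSM and PRPF), 16 hnRNP genes and 2 U2AF genes. A gene with several probe sets is represented by the one that is brightest on average over the 10 arrays. A further 53 probe sets that meet the name rule were blank on every array, and 18 genes had blank probe sets only, among them LSM1, HNRNPF, PRPF31 and SNRPD3. SNRPN was not a member, because its probe sets carry several symbols. All but 1 of the 51 symbols are also symbols of the bovine RefSeq gene table. The exception was SRSF8.

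There were 3 arrays of RNA from Bos taurus embryos produced by in vitro fertilization (IVF), labelled as pools, and 1 array for each of 7 adult organs (spleen, muscle, lung, liver, kidney, heart and brain). Embryo stage, breed, sex and animal age are not in the labels. The 3 embryo arrays may or may not come from different pools, and their differences may reflect no more than technical variation. The p-values of the main fit rest on the spread among the embryo arrays together with that among the organs. They cannot be carried over to other embryo pools. With 1 array per organ, the spread of the adult arm is the spread between organs. Every bovine transcript was read through probes made for human genes. A low value can therefore come from a poor match as well as from little RNA. Where intensities of different probe sets are compared or summed below, they do not rank the amounts of different transcripts.

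Introns are removed from pre-mRNA by the spliceosome, which is assembled from small nuclear ribonucleoproteins (snRNPs), particles of a short nuclear RNA and its proteins. The U1 snRNP recognises the start of the intron, the U2AF dimer and the U2 snRNP its end and branch site, and the U4, U5 and U6 snRNPs join to form the active enzyme. SR proteins, named for their arginine-serine-rich tails, bind mostly exons and promote use of nearby splice sites, while hnRNP proteins coat the nascent transcript and often act against that use. An early embryo begins to transcribe its own genome, and the introns of those transcripts have to be removed by the same proteins.

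Quantile normalization put the 10 arrays on a common scale with a median of 145.7. The deposited medians had run from 99.2 in liver to 221 in the third embryo array. Marker genes placed most organ labels: 4 of 4 measured heart markers, 6 of 7 liver, 4 of 5 muscle, 4 of 6 brain, 2 of 3 kidney and 2 of 5 lung markers were brightest in the array of that name. Neither of the 2 measured spleen markers was brightest in spleen. All 7 embryo markers, among them KRT8, SOX2 and TFAP2C, were higher on each embryo array than in any organ. The GAPDH control read at the 5′ end relative to the 3′ end, a ratio that falls as RNA breaks down, was 0.461 to 0.488 in embryos and 0.287 to 0.471 in the organs. HBB, a globin of red blood cells, rose too (1.68 ± 0.31 log2, SE, limma adjusted p = 0.00725), while ALAS2 and SLC4A1 of the same lineage did not pass. The granulosa and cumulus markers summed to 745.8 to 918 in embryos and 840 to 1044 in the organs, and none of the 5 measured was called. Within that list the third embryo array stood apart, with STAR at 139.7 against 0.91 and 0.18 on the others and at most 14.3 in the organs, and CYP19A1 at 305 against 79.9 and 118 and at most 171. Their part in the splicing factor values was not tested.

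The study compared embryos with adult tissues. In that comparison 5 of the 51 splicing factor genes rose in embryos and none fell: the snRNP genes SNRPA1, SNRPE, SNRPD1 and LSM3, and the SR protein gene SRSF5. The test was a limma fit over all 10186 probe sets on log2(intensity + 71), a scale that shrinks the change of dim genes, with a Benjamini-Hochberg threshold of 0.05. When simulated embryos were drawn like a further tissue, this fit made 778 false calls. On the real arrays it called 556 probe sets higher and 179 lower, so the threshold does not bound the false calls in such a case. The 5 genes are 9.80% of the members, where 4.95% of all genes were called higher and 1.71% lower. At an unadjusted p under 0.05, 17 members were higher and 0 lower, where all genes gave 12.4% and 7.78%. The difference was above 0 for 39 of the 51 members (76.5%) and for 46.2% of all genes. Its median on the log2 scale was 0.39 over the members and -0.04 over all genes. All 3 embryo arrays lay above all 7 organs for 13 members (25.5%), compared with 8.73% of all genes, and below all of them for 0 members, compared with 5.56%. Their probe sets were brighter than most, with a median mean log2 value of 8.33 against 7.80. A filter on mean brightness over all 10 arrays passed 3663 genes. Among them the median difference was 0.49 for 42 members and 0.02 for all genes, and 11.9% and 5.41% were called higher. That mean includes the embryo arrays, so high embryo values help a gene pass. The filter is therefore no independent check on the part of brightness. Markers of dividing cells were also high in embryos: 5 of 7 measured rose, and their summed intensity was 2833 to 3075 on the embryo arrays against 626 in muscle to 1672 in spleen. None of the 7 list genes is a member, and the part of dividing cells in the result was not tested.

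The count of 5 depended on single arrays. It was 1 without the first or the second embryo array (all genes: 1.83% and 1.56%) and 2 without the third (all genes: 2.88%). The share of all genes, 4.95% in the main fit, thus fell as well. Without heart, kidney or lung the count was 3 (all genes: 4.41%, 4.4% and 4.74%), and without spleen 9 (all genes: 5.27%). SNRPA1 was the exception among the 5, called in 20 of 21 alternative settings. With the mean of the embryo arrays taken as 1 sample, no member was called by limma and 0.0149% of all genes were, a single gene, and SNRPA1 had a limma adjusted p of 0.123. When every organ was its own group, 8 groups in all, only the embryo arrays gave a residual spread, and 22 members were higher and 2 lower (all genes: 15.8% and 22.7%). Total RNA from whole organs was measured, so fewer cells with a transcript and less of it per cell cannot be told apart.

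**Figure D1:**
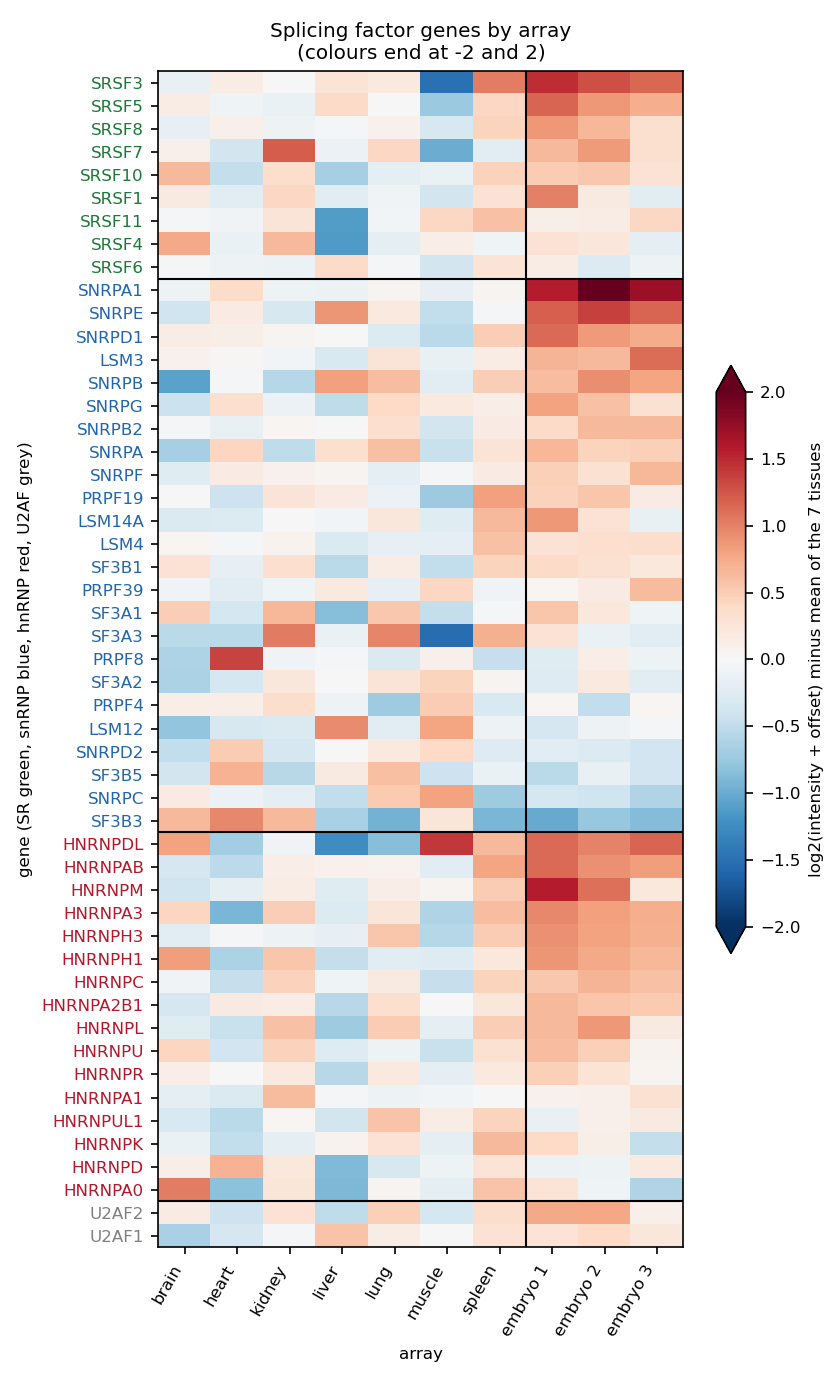
Each row is a splicing factor gene (brightest probe set) and each column an array. The colour gives log2(intensity + offset) minus the mean of the 7 tissues, with classes separated by lines and genes ordered within a class by the difference between embryos and tissues. Red prevails in the 3 embryo columns, 39 of 51 genes having a mean above that of the tissues.

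**Figure D2:**
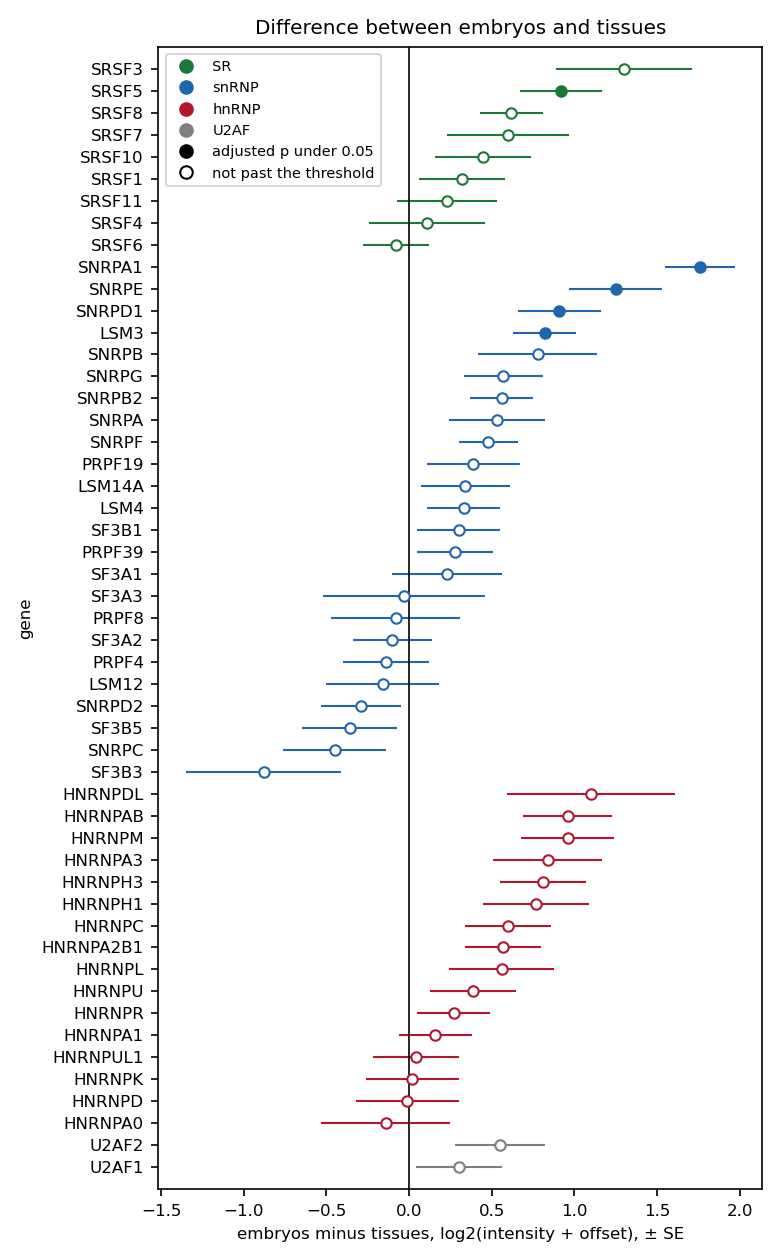
Fitted difference between 3 embryo arrays and 7 tissues for the 51 genes, with its standard error, by class. Filled points, with an adjusted p under 0.05, are SRSF5, SNRPA1, SNRPE, SNRPD1 and LSM3, and no filled point lies below 0.

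Among the snRNP genes the largest rise was that of SNRPA1, which encodes the U2 A′ protein, a subunit of the particle that binds the branch site. SNRPA1 read 1671, 2283 and 1861 on the embryo arrays, and from 455 in muscle through a median of 478 to 687 in heart among the organs. Every embryo array was at least 2.43 times as bright as the brightest organ, and the 7 organs differed from each other by 1.51-fold, the smallest such ratio among the member genes. The log2 difference of SNRPA1 was 1.76 ± 0.21 (SE, limma adjusted p = 0.000309). Its probe set is of the x_at kind, whose probes may also match other transcripts, and no second SNRPA1 probe set had values. SNRPB2, which encodes U2 B″, the binding partner of U2 A′, read 301, 378.5 and 378 in embryos against 149.8 to 292 (median 217) in the organs. Those groups did not overlap either, but SNRPB2 did not pass (0.56 ± 0.19, limma adjusted p = 0.106).

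Proteins of the Sm ring, the heptamer that encircles most spliceosomal RNAs, were measured through SNRPB, SNRPD1, SNRPD2, SNRPE, SNRPF and SNRPG. Of these 6 genes 2 rose (all genes: 4.95%), 5 had a positive difference (all genes: 46.2%), and their median was 0.67. SNRPE read 255, 296 and 247 in embryos, and from 29.6 in muscle through a median of 68.4 to 190.3 in liver, a difference of 1.25 ± 0.28 (SE, limma adjusted p = 0.0188). Liver stood nearest to the embryos, followed by lung at 91.4. SNRPD1 read 2056, 1671 and 1557 in embryos and 599 (muscle) to 1294 (spleen), median 934, in the organs. Its difference was 0.91 ± 0.25 (SE, limma adjusted p = 0.0472), close to the threshold. The called SNRPD1 probe set is of the s_at kind, which can match related transcripts. A dimmer SNRPD1 probe set, of the plain at kind, went the other way (-0.30, adjusted p = 0.357 by limma). It read 129.6, 138 and 133.5 in embryos, below every organ (139.6 to 235). SNRPB, whose protein shares its place in the ring with the product of SNRPN, read 251, 329 and 289 in embryos and 28.5 in brain to 296 in liver (median 132). The SNRPB difference did not pass (0.78 ± 0.36, limma adjusted p = 0.245), whereas its other probe set did (0.88, limma adjusted p = 0.0426). SNRPF and SNRPG differed by 0.48 and 0.57 and SNRPD2 by -0.29, none past the threshold.

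LSM proteins form a similar ring on U6 RNA, and in another combination a ring that promotes mRNA decay. LSM3, a subunit of both rings, read 360, 349 and 510 on the embryo arrays and 146 (liver) to 249.5 (lung), median 201, in the organs. All embryo values were above all organ values, by a factor of at least 1.40 (difference 0.82 ± 0.19, SE, limma adjusted p = 0.0210). LSM4, another ring subunit, differed by 0.33 and did not pass. LSM14A and LSM12, which carry the name but are not snRNP proteins, differed by 0.34 and -0.16, neither past the threshold.

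Neither of the member genes for proteins specific to U1 was called. SNRPA, the A protein of that particle, read 284, 233 and 241 in embryos and 70.0 in brain to 269 in lung, which overlapped them (0.53 ± 0.29, limma adjusted p = 0.336). SNRPC, its C protein, read 299, 287 and 241 in embryos against 216 (spleen) to 755 (muscle), median 362, and had a difference of -0.45 ± 0.31 (limma adjusted p = 0.468). The embryo values of SNRPC lay within the organ range. SNRNP70, the 70K protein of U1 and no member by name, gave -0.31 (limma adjusted p = 0.696).

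The SF3 genes encode the U2 subcomplexes SF3a and SF3b, which clamp the branch site. None of the 6 was called (all genes: 4.95% higher), 2 had positive differences (all genes: 46.2%) and the median of the 6 was -0.06. SF3B1, the subunit that contacts the branch site and is recurrently mutated in blood cancers, read 382, 361 and 333 in embryos and 167 (liver) to 400.3 (spleen) in the organs (0.30 ± 0.25, limma adjusted p = 0.551), and its 3 other probe sets differed by 0.09 to 0.83 without passing. SF3B3, a large subunit of SF3b, was dim in embryos at 4.17, 17.9 and 11.5, and in the organs ran from 7.07 in lung through 108 in muscle to 224 in heart. The embryo values overlapped those of lung and spleen, and the difference, -0.88 ± 0.47, did not pass (limma adjusted p = 0.318). SF3B5 gave -0.36 ± 0.29 (limma adjusted p = 0.535). SF3A1 and SF3A3 differed by 0.23 and -0.03 and their variation lay among the organs: SF3A3 read 19.2 in muscle and 464 in kidney, SF3A1 33.3 in liver and 226 in kidney.

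Of the 4 PRPF genes none was called (all genes: 4.95% higher), and their differences ran from -0.14 to 0.39. PRPF8, the large U5 protein at the catalytic centre, read 42.5, 76.3 and 54.3 in embryos, all below the array median of 145.7, and 16.9 (brain) to 273 (heart), median 57.3, in the organs (-0.08 ± 0.39, limma adjusted p = 0.926). PRPF19, the ubiquitin ligase of the complex that activates the spliceosome, had the highest difference of the 4 (limma adjusted p = 0.483).

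**Figure D3:**
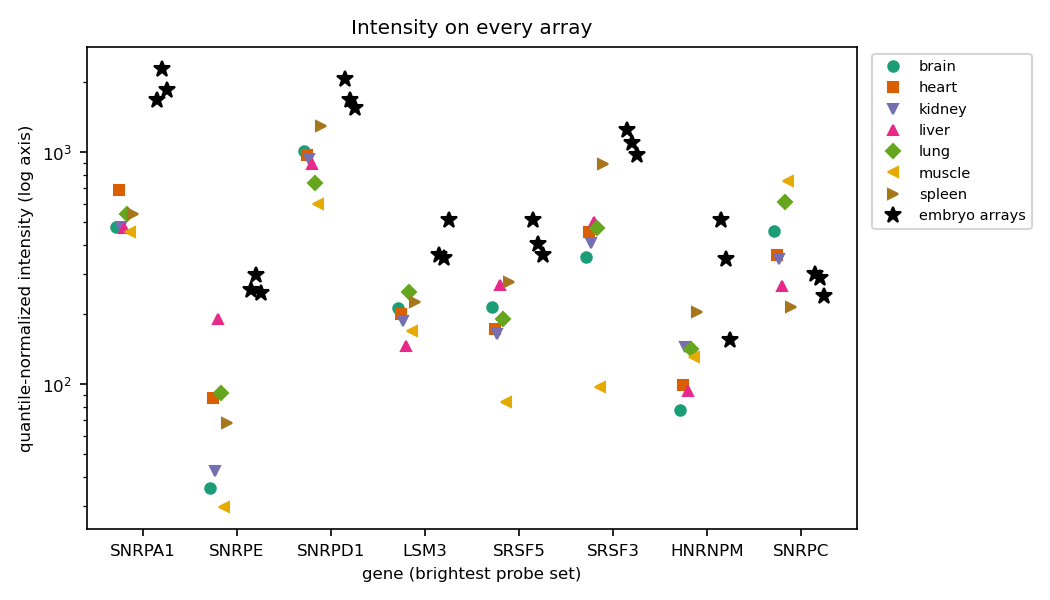
Quantile-normalized intensity of 8 genes on every array, on a log axis, with organs as coloured symbols and embryo arrays as stars. The stars lie above every organ for SNRPA1, SNRPE, SNRPD1, LSM3, SRSF5 and SRSF3, overlap the organs for HNRNPM and lie within their range for SNRPC.

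Of the 9 SR protein genes 1 was called, 8 had a positive difference and the median was 0.45. Over all genes 4.95% were called higher and 46.2% were positive. The called gene was SRSF5, a regulator of exon inclusion. SRSF5 read 508, 403.5 and 359.5 in embryos and 84.3 (muscle) to 275 (spleen), median 191, in the organs, with no overlap (0.92 ± 0.25, SE, limma adjusted p = 0.0436). The other SRSF5 probe set differed more, at 745, 665 and 404 in embryos against 79.9 to 184 in the organs (1.63 ± 0.22, SE, limma adjusted p = 0.000909). SRSF3, the smallest SR protein and a factor that early mouse embryos need, had the largest difference of the class by its brightest probe set, with 1241, 1091 and 973 in embryos and 97.2 in muscle, a median of 454 and 887 in spleen. The groups did not overlap, yet the wide organ range left SRSF3 short of the threshold (1.30 ± 0.41, limma adjusted p = 0.0815). It passed without muscle (1.06, limma adjusted p = 0.0390) or without spleen (1.48, limma adjusted p = 0.0361). The values as deposited also gave a call (1.44, limma adjusted p = 0.0361), and a common median did not (1.17, limma adjusted p = 0.138). The dimmer SRSF3 probe set was called, at 541, 566.5 and 424 in embryos and 82.0 to 228 in the organs (1.52 ± 0.24, SE, limma adjusted p = 0.00243).

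SRSF8 differed by 0.62 ± 0.19 (limma adjusted p = 0.0819), and the third embryo array, at 174, was below spleen at 194. SRSF8 is the symbol not found in the bovine gene table, and its probe set is of the x_at kind. The SRSF8 reading may therefore come from another transcript. SRSF1, the founding member of the family, read 395, 191 and 129 on the embryo arrays, a wider spread than that of the organs, 110.2 to 241 (0.32 ± 0.26, limma adjusted p = 0.552). A different SRSF1 probe set was called, at 298, 249.7 and 149 in embryos and 12.2 to 71.8 in the organs (1.43, limma adjusted p = 0.00719). SRSF7, a relative of SRSF3, read 413, 487 and 316.5 in embryos and 84.9 (muscle) to 644 (kidney), and did not pass (0.60 ± 0.37, limma adjusted p = 0.407). SRSF4 (0.11), SRSF11 (0.23) and SRSF6 (-0.08), 3 further SR proteins, had embryo values inside the organ range. Liver was the lowest organ for SRSF11, at 26.6 against 129.2 or more elsewhere, and for SRSF4, at 65.0 against 434 in brain.

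None of the 16 hnRNP genes was called by its brightest probe set (all genes: 4.95% higher, 1.71% lower). A positive difference was found for 14 (all genes: 46.2%). At an unadjusted p under 0.05, 7 were higher (all genes: 12.4%) and 0 lower (all genes: 7.78%). The median over the 16 genes, 0.57, was the highest of the 3 large classes. Differences between classes were not tested. For 5 of the 16, namely HNRNPA2B1, HNRNPA3, HNRNPAB, HNRNPC and HNRNPH3, every embryo array was above every organ (all genes: 8.73%). A dimmer HNRNPA3 probe set was the opposite, with embryos at 133.7, 55.1 and 128.3 below every organ (155.6 to 272.5), and did not pass (-0.70 ± 0.20, limma adjusted p = 0.0512). HNRNPAB, a nucleic acid binding protein close to the A and B type hnRNPs, read 818, 691 and 655 in embryos and 209.9 (heart) to 627 (spleen), median 353 (0.96 ± 0.27, limma adjusted p = 0.0502). HNRNPAB passed on the values as deposited (1.14, limma adjusted p = 0.032). It did not pass at a common median (0.88, limma adjusted p = 0.0776) or with an offset of 1 (1.11, limma adjusted p = 0.0547). HNRNPM, which binds GU-rich RNA, had about the same difference in the main fit, 0.96 ± 0.28 (limma adjusted p = 0.0581). HNRNPM read 509, 346 and 156 in embryos, however, the third below spleen at 205.5. HNRNPM passed without the third embryo array (1.34, limma adjusted p = 0.0178) or without spleen (1.05, limma adjusted p = 0.0429). It also passed on the values as deposited (1.15, limma adjusted p = 0.0151), but not at a common median (0.96, limma adjusted p = 0.0673). HNRNPDL, a relative of the decay factor HNRNPD, read 1120, 1002 and 1146 in embryos, and its organ values ran from 157 in liver to 1368 in muscle, which exceeded the embryos (1.10 ± 0.51, limma adjusted p = 0.247).

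HNRNPC, which packages nascent transcripts and masks uridine-rich tracts, read 1386, 1539 and 1435 in embryos against 656 (heart) to 1301 (kidney) in the organs (0.60 ± 0.26, limma adjusted p = 0.210). HNRNPA1, the best known antagonist of SR proteins, gave 389.7, 395 and 464 in embryos and 284 (heart) to 598 (kidney) in the organs, a difference of 0.16 ± 0.22 (limma adjusted p = 0.723). HNRNPK, a binder of cytidine-rich RNA, read 806, 651 and 408 in embryos and 401 (heart) to 969 (spleen), a difference of 0.02 ± 0.28 (limma adjusted p = 0.977). The negative differences belonged to HNRNPA0 (-0.14 ± 0.39) and HNRNPD (-0.01 ± 0.31). The dimmer HNRNPA0 probe set gave 0.98 ± 0.27 and did not pass (limma adjusted p = 0.0508), with embryos at 269.7 to 324 and organs at 58.4 to 290.7. HNRNPD is an AU-rich element binding protein, and its brightest probe set read 704, 713 and 891 in embryos, inside the organ range of 388 to 1301. The 8 hnRNP genes not given in detail differed by between 0.04 and 0.84, none past the threshold.

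The U2AF dimer finds the 3′ end of the intron, U2AF2 through the pyrimidine tract and U2AF1 through the terminal AG. U2AF1 read 944, 1032 and 912.5 in embryos and 467 (brain) to 1169 (liver) in the organs (0.30 ± 0.26, limma adjusted p = 0.577). U2AF2 read 383.5, 387 and 217 against 116 (liver) to 303 (lung), and did not pass either (0.55 ± 0.27, limma adjusted p = 0.278).

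Different probe sets of the same gene often gave different answers. Over the 89 probe sets 14 were called higher (all probe sets: 5.46%) and none lower (all probe sets: 1.76%), and those 14 belong to 11 genes. In 6 genes the brightest probe set was not called while a dimmer one was: SRSF1, SRSF3, SRSF7, SRSF10, SNRPB and HNRNPD. Of the 23 genes with at least 2 probe sets, 11 had only positive differences, 11 had both signs and 1 only negative ones, and the differences within a gene spanned 0.71 log2 at the median. SRSF5 was the gene in which every probe set was called. For HNRNPD the 2 called probe sets read 549, 437 and 358, and 402, 381.5 and 274, in embryos, both above all organs (0.88 and 1.12, limma adjusted p = 0.0352 and 0.0221), while the brightest gave -0.01. For SRSF10, an SR protein that represses splicing when dephosphorylated, 2 of 4 probe sets were called (1.57 and 1.20, limma adjusted p = 0.00514 and 0.00725); SRSF10 is named here after its values were seen. The 2 read at most 59.7 and 120 in the organs, whereas the brightest read up to 589 in brain and did not pass (0.45, limma adjusted p = 0.434). By the suffix of the probe set name, 6 of 19 x_at sets, 7 of 42 s_at sets and 1 of 27 plain at sets were called. How often each kind was called over all probe sets was not counted, so these shares have no background. The s_at and x_at kinds can match related transcripts, so in these families of similar genes a reading may be shared among members.

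**Figure D4:**
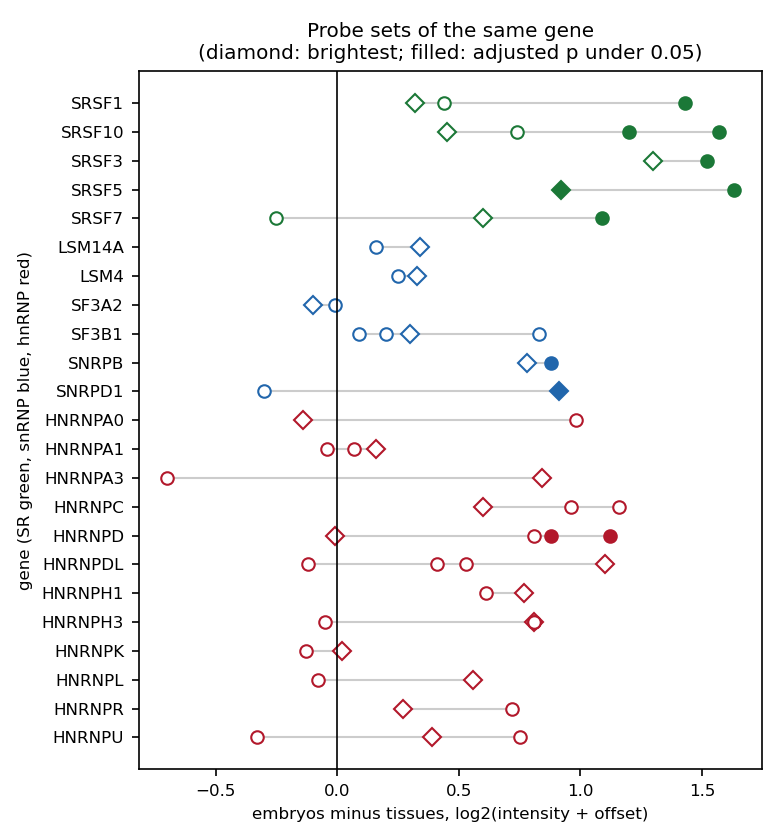
Difference between embryos and tissues for every probe set of the 23 genes with more than 1, joined by a line per gene. Diamonds mark the brightest probe set and filled symbols an adjusted p under 0.05; in SRSF1, SRSF3, SRSF7, SRSF10, SNRPB and HNRNPD a circle is filled and the diamond is not.

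Among the organs, with 1 array each, splicing factor intensities are described without a test. Spleen was the brightest organ for 15 of the 51 genes (29.4%), compared with 14.1% of all genes, and the dimmest for 1 (10.5% of all genes); its label was the one that no measured marker placed. Kidney was brightest for 8 members and dimmest for 1, where all genes gave 12.4% and 9.24%. Lung was brightest for 8 and dimmest for 2 (all genes: 10.7% and 13.2%). The genes brightest in spleen included SRSF3, SRSF5, SRSF8 and SRSF11, SNRPD1, HNRNPK, HNRNPAB and HNRNPM.

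After quantile normalization liver and muscle were most often lowest. Liver was dimmest for 15 members and brightest for 5 (all genes: 22.0% and 16.3%), and muscle dimmest for 14 and brightest for 5 (all genes: 16.6% and 17.9%). Of the SR protein genes 6 of 9 were dimmest in muscle, among them SRSF3, SRSF5 and SRSF7. Heart was dimmest for 8 and brightest for 6 (all genes: 12.0% and 13.5%), with 7 of its 8 lowest genes being hnRNPs. Brain was dimmest for 10 and brightest for 4 (all genes: 16.6% and 15.1%), and 8 of those 10 were snRNP genes. SNRPB read 28.5 in brain against 69.7 or more in every other organ. On the values as deposited brain was brightest for 12 members (all genes: 28.5%) and spleen for 14 (all genes: 16.0%), and liver was dimmest for 21 members (all genes: 37.2%), heart for 12 (all genes: 22.4%) and muscle for 9 (all genes: 9.64%).

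The median splicing factor was higher in embryos than in each of the 7 organs. The median of embryos minus organ over the 51 genes was 0.65 for liver, 0.58 for muscle, 0.57 for heart, 0.40 for brain, 0.25 for lung, 0.19 for kidney and 0.18 for spleen, while over all genes it lay between 0.00 and 0.07. These 7 values share the same embryo arrays. The embryo mean was above heart for 44 members and above liver and lung for 40 each. It was above brain and muscle for 39 each, above spleen for 35 and above kidney for 33. Over all genes that share was between 50.2% (muscle) and 55.7% (liver), against 64.7% (kidney) to 86.3% (heart) of the members. With the values as deposited the member medians were all positive as well, from 0.27 for brain to 1.02 for liver (all genes: -0.04 and 0.45), and so were those at a common median, from 0.11 for lung to 0.56 for muscle. As a ratio of the highest to the lowest organ, SNRPA1 varied least and SF3B3 (31.7-fold), SF3A3 (24.1-fold) and PRPF8 (16.1-fold) most, but the lowest readings of those 3 were 7.07, 19.2 and 16.9, well under the offset of 71. On the log2(intensity + 71) scale the widest organ ranges were those of HNRNPDL (2.66), SF3A3 (2.57) and SRSF3 (2.51), and the narrowest that of SNRPF (0.41), followed by SNRPA1 (0.53).

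**Figure D5:**
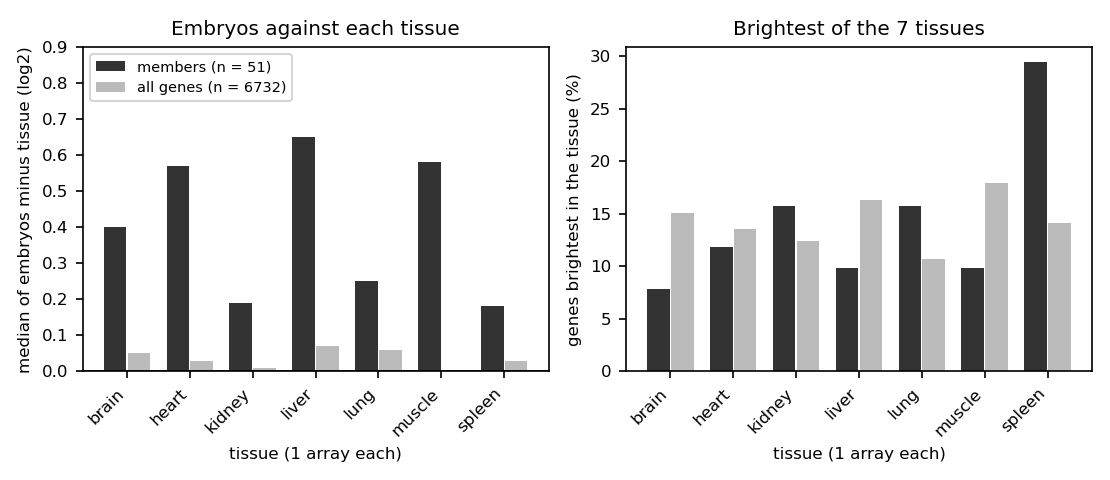
Left, median over genes of the embryo mean minus each organ on the log2(intensity + offset) scale; right, percentage of genes for which each organ was the brightest of 7. Dark bars are the 51 splicing factors and pale bars all 6732 genes; spleen stands out on the right at 29.4% and has the shortest dark bar on the left, 0.18.

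The embryo arrays were not alike in these genes, and the third also stood apart in STAR and CYP19A1, whose part in this was not tested. The first embryo array was the brightest of the 3 for 26 of 51 members (51.0%) and the third the dimmest for 30 (58.8%), compared with 38.1% and 45.6% of all genes. Above the mean of the organs, the median member stood at 0.51 on the first array, 0.40 on the second and 0.23 on the third. Before normalization the third array was the brightest for 34 members, as it was for 74.2% of all genes.

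Of 94 other splicing genes that the members' names do not cover, 55 had values, and 4 (7.27%) rose and 2 fell, where 4.95% and 1.71% of all genes did. Their median difference was 0.15 (all genes: -0.04), and 30 of 55, or 54.5%, were positive (all genes: 46.2%). CLK2, a kinase that phosphorylates SR proteins, read 275, 408 and 189.5 in embryos and 15.8 to 99.6 in the organs (1.69 ± 0.31, SE, limma adjusted p = 0.00695). TRA2B, a relative of the SR proteins, rose by 1.06 log2, GEMIN2, which helps load the Sm ring, by 1.05, and U2SURP, a U2 associated protein, by 0.84. The falls were those of the muscleblind regulators MBNL1 (-2.69) and MBNL2 (-1.78), which promote adult splicing patterns in muscle and other organs. Probe sets with several symbols were left out of every count. Of the 15 that include a splicing factor name, a probe set for HNRNPA3 and its pseudogene rose by 1.33 (limma adjusted p = 0.00955) and 1 of 3 for SRSF2 by 1.06 (limma adjusted p = 0.0349). SNRPN is imprinted and encodes the brain form of the SNRPB protein. Probe sets with the symbols SNURF and SNRPN gave differences of 0.21 and 0.69 and did not pass. A further probe set gave 0.61 and did not pass, but it also carries the symbols of SNORD genes, PWARSN and IPW. Its reading cannot be assigned to SNRPN alone. By 1 probe set SNRPN read 334 in brain against 71.3 to 192 in the other organs, although another of its probe sets was brightest in liver, at 286 against 219 in brain.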

How the data were processed

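The authors deposited 1 linear intensity per probe set and array; how they were extracted, corrected and scaled is not given in the sources used. Of 22283 probe sets 12064 were blank on every array, and 33 manufacturer's controls were left out. Array trimmed means differed 1.90-fold, so arrays were quantile normalized, which hides differences in total signal. No filter on dim probe sets was used in the main fit, because a filter asking for 3 bright arrays can be met by the embryo arrays alone. The offset in log2(intensity + 71) is the 25th percentile of an array, as a median over the arrays. The test was two-sided, in R 4.3.3 with the limma package, version 3.58.1 (lmFit, then eBayes with trend and robust; Benjamini-Hochberg over 10186 probe sets), for 3 embryo arrays against 7 tissues. Groups came from the sample titles. Symbols came from the platform annotation; 6732 genes had a probe set with 1 symbol. The number of arrays limits the precision.

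Members, lists and tests were chosen with earlier results of these data known. Genes named are all called members, the 3 largest differences per class and direction, the 10 widest organ ratios and a list of well-known factors, and among other splicing genes the 4 largest calls per direction. Tested on simulated arrays with 67, 67 and 66 of 10186 probe sets shifted by 1, 2 and 3 log2, the fit found 16, 50 and 60 with 5 false calls when embryos sat at the tissue mean, but made 778 false calls when embryos were drawn like a further tissue; averaged embryo arrays then made 3 and found 2, 24 and 35. On the real arrays the main fit called 556 probe sets higher and 179 lower. Alternatives were the deposited values, a common median, other offsets, filters, variance settings and probe sets, averaged embryo arrays, 8 groups and each array left out. Plots were made in Python 3.11.15 (matplotlib 3.10.9). No sequence is shown, as no sequence table was used here.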

Additional observations from a re-analysis of the deposited data

Results flagged for a closer look

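In 11 of the 89 probe sets, the gap between 1 organ and the next was large against the range of all 7 organs (Dixon's criterion, above 0.568). Chance flags about 1 group in 20 among like replicates, which 7 organs are not, so 11 of 89 cannot be read as an excess. With 1 array per organ, an organ's biology and a single deviating reading cannot be told apart. The widest gaps were those of a dim SRSF7 probe set, at 1284 in brain and 20.8 to 43.7 in the other organs, and of a dim HNRNPU probe set, at 316 in liver and 0.28 to 9.46 elsewhere. Neither was shared by the brighter probe sets of these genes. SRSF7 read 260 in brain by its brightest probe set, where kidney was highest, and HNRNPU read 276 in liver, where kidney was highest.

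Further high readings were LSM4 in liver by its dimmer probe set (300.5, others 28.4 to 68.9) and in spleen by its brightest (171, others 60.8 to 97.6), HNRNPA1 in kidney (598, others 284 to 366), PRPF8 in heart (273, others 16.9 to 74.2), SNRPA1 in heart (687, others 455 to 541) and a dimmer SF3A2 probe set in muscle (240.4, others 86.0 to 125). Low readings were SRSF11 in liver (26.6, others 129.2 to 246), SRSF5 in muscle by its dimmer probe set (79.9, others 134 to 184) and a dimmer SF3B1 probe set in muscle (73.5, others 140.2 to 202).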

How the results depend on the processing

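The median difference of the members stayed positive in every alternative run. It was 0.58 as deposited, 0.54 with an offset of 1, 0.23 with an offset 4 times larger and 0.55 with each gene's most variable probe set, compared with 0.39 in the main fit; without 1 embryo array it was 0.36 to 0.52. The deposited values moved the median of all genes by 0.16, and relative to it the members stood at 0.46, against 0.43 in the main fit. The count of members called higher, 5, was 8 as deposited (all genes: 6.28%). It was 3 (5.88% of members) at a common median and with an offset of 1 (all genes: 4.29% and 4.13%). With averaged embryo arrays it was 0, in the 8-group fit 22 and with the most variable probe sets 8 (all genes: 0.0149%, 15.8% and 5.7%). Without the heart, kidney or lung array it was 3 (all genes: 4.41%, 4.4% and 4.74%), and without the spleen array 9 (all genes: 5.27%). Without 1 embryo array it ran from 1 to 2 (all genes: 1.56% to 2.88%). The count of members called lower was 0 throughout except for 2 in the 8-group fit (SNRPC and SF3B3). HNRNPD changed sign with its most variable probe set, from -0.01 to 1.12 (limma adjusted p = 0.0221), since that is another probe set. Small differences without a call changed sign in some settings as well. As deposited, HNRNPD gave 0.14, HNRNPA0 0.05 and SRSF6 0.1, where the main fit gave -0.01, -0.14 and -0.08. At a common median HNRNPK gave -0.07, where the main fit gave 0.02. SNRPD1 was called in 9 of 21 alternatives, SRSF5 in 10 of 21, LSM3 in 17 of 21, SNRPE in 16 of 20 and SNRPA1 in 20 of 21. Adjusted p-values ran up to 0.845 for SNRPD1, 0.809 for SRSF5, 0.607 for LSM3 and 0.741 for SNRPE, each in the fit with averaged embryo arrays. Over the named genes and all alternatives, 32 values lost a call, 24 gained one and the others, HNRNPD apart, kept their direction when called and their side of the threshold. Where no cause is named, the cause was not tested. No paired analysis was possible because each tissue has 1 array and the labels number only the embryo arrays, so no number ties an embryo array to a tissue. Human probes on bovine RNA and 1 array per organ limit what dim probe sets can show.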
